A study of Mus musculus with 7 samples.

Results

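The 8 genes described here encode the amino acid transporters of the basolateral membrane of kidney tubule cells and close relatives: Slc3a2, Slc7a5, Slc7a6, Slc7a7, Slc7a8, Slc16a10, Slc43a2 and Slc38a3. They were taken by name from 45706 genes in the deposited tables, each matched 1 annotated gene, and all 8 were among the 15399 genes with enough counts to be tested. RNA came from whole frozen kidney of 7 male Slc7a9-/- mice aged 6 months, of which 3 were untreated and 4 had received 16 mg/kg/day of L-ergothioneine, a sulfur-containing antioxidant from the diet, in their drinking water. Both groups lack Slc7a9, the light chain of the apical cystine transporter whose loss gives cystinuria, so no value here compares the model with a normal kidney.

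Amino acids filtered by the glomerulus enter proximal tubule cells through apical carriers and leave toward the blood through basolateral ones. CD98hc, the Slc3a2 product, is a heavy chain with no transport of its own that binds 1 of several light chains by a disulfide bridge and brings it to the membrane. Of these light chains, LAT2 (Slc7a8) exchanges neutral amino acids, y+LAT1 (Slc7a7) lets lysine, arginine and ornithine out in exchange for neutral amino acids and sodium, and its loss causes lysinuric protein intolerance. LAT1 (Slc7a5) and y+LAT2 (Slc7a6) do similar work mainly in other tissues and in dividing cells. LAT4 (Slc43a2) and TAT1 (Slc16a10) need no heavy chain and let branched-chain and aromatic amino acids run down their gradients, which feeds the exchangers. SNAT3 (Slc38a3) carries glutamine together with sodium against protons and supplies ammonia formation.

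In GRCm38 the minus strand holds Slc7a7 (chromosome 14, 54369442 to 54417780), Slc7a8 (chromosome 14, 54722209 to 54781946), Slc3a2 (chromosome 19, 8706882 to 8723369), Slc16a10 (chromosome 10, 40033532 to 40142258), Slc7a5 (chromosome 8, 121881150 to 121907694) and Slc38a3 (chromosome 9, 107650634 to 107669530). The plus strand holds Slc43a2 (chromosome 11, 75531694 to 75577575) and Slc7a6 (chromosome 8, 106168857 to 106198706). The light chain genes Slc7a7 and Slc7a8 lie 304.4 kb apart with 16 protein-coding genes between them. RefSeq start sites on GRCm38.p6 were at hand for 6 of the 8 genes, with 12 windows that run from 250 bases before to 50 after a start. The 250 bases before the first listed start follow for the 4 genes that were higher with ergothioneine, as the stretches those genes could share, and for Slc7a7, which holds a match to a motif. The Slc3a2 stretch lies inside the span of that gene given above. The bases before the start of that span, at 8723369 on the minus strand, were not searched. Capitals mark matches to the letters TGATGNAA (an amino acid response element, bound by ATF4).
Slc43a2 (chr11:75531444-75531693, plus strand): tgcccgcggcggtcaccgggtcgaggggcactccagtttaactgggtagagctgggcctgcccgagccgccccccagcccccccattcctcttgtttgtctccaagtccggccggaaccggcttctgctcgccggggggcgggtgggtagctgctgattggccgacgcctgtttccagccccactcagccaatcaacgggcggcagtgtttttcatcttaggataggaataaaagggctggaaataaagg
Slc7a8 (chr14:54781887-54782136, minus strand): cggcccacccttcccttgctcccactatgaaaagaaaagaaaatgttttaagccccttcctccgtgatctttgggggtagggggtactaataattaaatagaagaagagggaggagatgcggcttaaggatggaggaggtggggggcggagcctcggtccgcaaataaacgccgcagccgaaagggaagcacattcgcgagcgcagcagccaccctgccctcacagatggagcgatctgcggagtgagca
Slc16a10 (chr10:40142255-40142504, minus strand): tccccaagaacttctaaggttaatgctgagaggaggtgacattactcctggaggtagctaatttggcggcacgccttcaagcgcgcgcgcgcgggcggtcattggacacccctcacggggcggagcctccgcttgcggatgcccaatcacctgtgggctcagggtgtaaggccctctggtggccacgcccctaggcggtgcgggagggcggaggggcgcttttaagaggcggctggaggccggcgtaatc
Slc3a2 (chr19:8713898-8714147, minus strand): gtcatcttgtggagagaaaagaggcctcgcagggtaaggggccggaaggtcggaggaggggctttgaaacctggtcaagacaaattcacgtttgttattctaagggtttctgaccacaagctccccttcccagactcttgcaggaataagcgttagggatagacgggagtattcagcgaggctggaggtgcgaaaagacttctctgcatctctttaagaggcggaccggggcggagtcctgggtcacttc
Slc7a7 (chr14:54417945-54418194, minus strand): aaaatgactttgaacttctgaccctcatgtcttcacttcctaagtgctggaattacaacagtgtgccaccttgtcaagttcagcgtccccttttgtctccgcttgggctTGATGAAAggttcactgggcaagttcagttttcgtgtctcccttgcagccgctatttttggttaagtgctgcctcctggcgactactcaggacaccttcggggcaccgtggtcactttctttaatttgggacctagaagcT
In Slc7a7 the first match begins at -141 from the start, and the closing capital is the first base of another match that begins at -1 and runs across the start. Slc7a7 has several windows. The site at -1 also falls in the window of another of its starts, at -243, and its remaining windows hold no match. Both strands were searched, and 3.97% of 32851 mouse windows of the same 300 bases hold TGATGNAA. That share is per window, not per gene, and the match in Slc7a7 is a description of its letters only. The letters TGACNNNGC (antioxidant response element, in 12.4% of windows) were found among these genes in Slc7a6 alone, and CACGTG (E-box, in 7.15% of windows) in none of the 12 windows. The windows of Slc43a2, Slc7a8, Slc16a10 and Slc3a2 held none of the 3 motifs, which says only that these letters are absent there.

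Total counts per library ran from 14843899 to 19791575. Slc7a9 had 95 to 105 counts untreated and 103 to 166 treated, and since the disrupted exons are not named in the labels these reads cannot check the genotype. Markers of the first proximal segments, which define the tissue, were abundant in every library (8 genes, together 17676 to 21430 CPM untreated and 17898 to 19359 treated, where CPM are counts scaled to library size), and 0 of these 8 passed the test between groups. In bulk tissue, fewer cells of a type and less RNA per cell cannot be told apart. Untreated libraries 1 and 2 stood apart from the other 5: short non-coding RNA took 12.2% and 16.2% of their TPM (a level divided by transcript length, with the same sum in each library) and 37.5% to 48.7% elsewhere. This lowers the TPM of every long gene in the 5 libraries, so differences between groups below come from counts, and TPM serves to compare genes within a library. Counts also showed a split within the untreated group. They differed by 8.51 times sampling noise between untreated 1 and 2, but by 24.8 and 25.4 between these and untreated 3 (chi-square per degree of freedom). Treated pairs ran from 7.48 to 18.

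Within a library the levels kept nearly the same order. Slc7a7 had the highest TPM of the 8 in all 7 libraries, at 134.2, 85.57 and 74.2 TPM untreated and 86.32, 85.33, 85.28 and 73.84 treated. Slc3a2, Slc43a2 and Slc7a8 followed close together, with 47.5 to 76.4, 45.0 to 63.3 and 42.7 to 63.0 TPM over the 7 libraries. Their order changed in part between libraries, since Slc3a2 was second in 4 and Slc43a2 in 3, and Slc7a8 passed Slc43a2 only in untreated library 2. Slc3a2 lay above Slc7a8 in all 7 libraries, with log2 ratios of Slc7a8 to Slc3a2 TPM from -0.32 to -0.03. Differences in level between these genes were not tested. In every library Slc38a3 came next (20.6 to 46.7 TPM), then Slc16a10 (11.1 to 16.5 TPM). Slc7a6 and Slc7a5 came last in all 7, at 1.45 to 2.56 and 0.67 to 1.52 TPM. As shares of the TPM of the 8 genes, Slc7a7 took 30.7% ± 2.46 (SD, n = 3) untreated and 28.5% ± 1.32 (SD, n = 4) treated, and Slc43a2 took 16.9% ± 1.42 and 19.7% ± 1.1.

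The comparison of the design asks how kidneys of this model differ with ergothioneine. Of the 8 transporters 4 were higher in treated kidneys and 0 lower, by edgeR's quasi-likelihood test with Benjamini-Hochberg adjustment over all 15399 genes (adjusted p under 0.05). Over all tested genes 7.16% were called, 3.58% higher and 3.57% lower. The 4 were the uniporters Slc43a2 and Slc16a10, the light chain Slc7a8 and the heavy chain Slc3a2. The same 4 were those whose treated values all lay above every untreated value, a pattern that 9.46% of all tested genes showed. The median log2 fold change of the 8 was 0.28, against 0.00 over all genes tested, and the genes were chosen with earlier results of these data known. Markers of other cells also moved between the groups: 3 of 6 markers of the last proximal segment fell (2404 to 2765 CPM in sum untreated, 1833 to 2215 treated), and 6 of 6 adipocyte markers fell (51.7 to 63.8 and 11.8 to 20.2 CPM). Their part in the 4 rises was not tested.

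**Figure D1:**
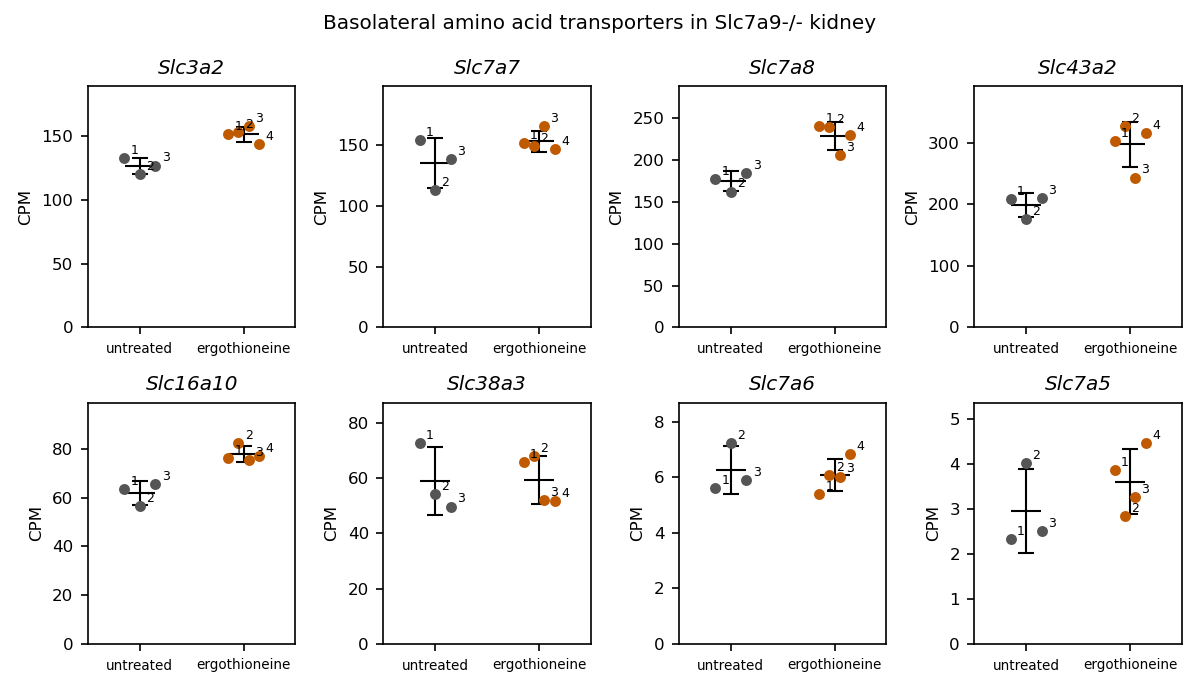
Scaled counts (CPM, linear axis from 0) of the 8 genes in each kidney, untreated in grey and ergothioneine in orange, with replicate numbers; bars show mean and SD (n = 3 and 4). Groups separate for Slc3a2, Slc7a8, Slc43a2 and Slc16a10, for example Slc43a2 at 176 to 211 CPM untreated and 244 to 327 treated, and overlap for the other 4.

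The LAT4 gene Slc43a2 rose in treated kidneys. It stood at 208.8, 176.4 and 210.6 CPM in the untreated kidneys and at 303.6, 327.3, 243.7 and 315.8 CPM in the treated ones. Treated kidney 3 was the lowest of its group and still above all untreated kidneys. The means were 199 ± 19.3 (SD, n = 3) and 298 ± 37.2 (SD, n = 4), 1.498-fold higher (log2 fold change 0.58 ± 0.10 (SE), edgeR adjusted p = 0.00717). LAT4 lies basolaterally in the proximal tubule and also in the thick ascending limb and distal convoluted tubule. Beside this rise, 2 of 5 thick ascending limb markers rose, Slc12a1 (log2 fold change 0.34, not past the threshold without untreated 3, treated 1 or treated 2) and Cldn10 (0.31, past it only without untreated 2 or treated 4), and 0 of 4 distal convoluted tubule markers passed. The summed limb markers spanned 5883 to 6196 CPM untreated and 5984 to 7181 CPM treated, and their part in the Slc43a2 result was not tested. A non-coding gene on the other strand, Gm45606, overlaps 922 bases of Slc43a2 exons, it was not analysed here, and the strand setting of the counting is not given in the sources used here.

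TAT1, the Slc16a10 product, carries tyrosine, phenylalanine and tryptophan. Slc16a10 measured 63.6, 56.5 and 65.5 CPM untreated and 76.3, 82.6, 75.3 and 76.9 CPM treated. The 4 treated kidneys lay close together, and the lowest of them was above the highest untreated kidney. The difference was 1.256-fold (61.9 ± 4.77 against 77.8 ± 3.27 CPM, SD over 3 and 4 kidneys, with a log2 fold change of 0.33 ± 0.07 (SE), edgeR adjusted p = 0.00487).

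Among the CD98hc complexes, the LAT2 gene Slc7a8 measured 177.7, 162.5 and 185.1 CPM untreated and 240.7, 240.1, 205.8 and 229.9 CPM treated. As for Slc43a2, treated kidney 3 was the lowest of the treated and untreated kidney 2 the lowest of all. The rise was 1.309-fold (175 ± 11.5 against 229 ± 16.3 CPM, SD over 3 and 4 kidneys, with a log2 fold change of 0.39 ± 0.07 (SE), edgeR adjusted p = 0.00154). Slc3a2 itself measured 132.3, 120.3 and 126.8 CPM untreated and 151.4, 152.9, 157.5 and 143.5 CPM treated. Here treated kidney 3 was the highest, and the groups again did not overlap. The heavy chain rose 1.196-fold (126 ± 6.04 against 151 ± 5.85 CPM, SD over 3 and 4 kidneys, with a log2 fold change of 0.26 ± 0.06 (SE), edgeR adjusted p = 0.0099).

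The most abundant light chain gene, Slc7a7, did not pass. It measured 154.2, 113.2 and 138.5 CPM untreated and 151.6, 149.0, 165.7 and 147.0 CPM treated. Only treated kidney 3 exceeded all untreated kidneys, and untreated kidney 2 was the lowest of the 7. The log2 fold change was 0.18 ± 0.09 (SE; edgeR adjusted p = 0.277), and with 1 library left out it ran from 0.07 without untreated kidney 2 (adjusted p = 0.666) to 0.29 without untreated kidney 1 (adjusted p = 0.0561). The exons of Slc7a7 overlap 232 bases of Oxa1l on the other strand, a gene with 718 to 1029 counts per library. Macrophages also express Slc7a7, and 0 of 6 macrophage markers passed, at 86.9 to 92.3 CPM in sum untreated and 87.5 to 97.2 treated.

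The remaining light chains were scarce. Slc7a5 had 41, 60 and 39 counts untreated and 68, 56, 56 and 82 treated, and the groups overlapped (2.95 ± 0.933 and 3.61 ± 0.712 CPM, SD over 3 and 4 kidneys, with a log2 fold change of 0.30 ± 0.23 (SE), edgeR adjusted p = 0.522). With 1 library left out its log2 fold change ran from 0.15 without untreated kidney 1 to 0.58 without untreated kidney 2, past the threshold in none of the 7 fits (edgeR adjusted p from 0.193 to 0.824), and it was also low without treated kidney 4, at 0.18. Slc7a6 had 99, 108 and 92 counts untreated and 95, 120, 103 and 125 treated, again overlapping (log2 fold change -0.04 ± 0.15 (SE), edgeR adjusted p = 0.932). Markers of dividing cells, in which LAT1 is prominent, rose in 3 of 5 cases, from 4.62 to 8.56 CPM in sum untreated to 10.9 to 23.0 CPM treated, while Slc7a5 did not pass. Of these 3 markers Cdk1 missed the threshold without untreated kidney 2 or untreated kidney 3 (edgeR adjusted p up to 0.0531).

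The glutamine carrier gene Slc38a3 showed no common shift. It measured 72.7, 54.3 and 49.6 CPM untreated and 65.8, 68.0, 51.9 and 51.6 CPM treated. Untreated kidney 1 was the highest of all and untreated kidney 3 the lowest, so the untreated range enclosed every treated value. The log2 fold change was 0.01 ± 0.17 (SE; edgeR adjusted p = 0.985), with a wider standard error than Slc7a7, Slc7a8, Slc3a2, Slc16a10 or Slc43a2.

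The makeup of the CD98hc partners was compared as shares of the summed TPM of the 4 light chain genes, a ratio within a library that the short RNAs do not move. Slc7a7 made up 67.0%, 60.0% and 62.3% untreated and 58.1%, 60.1%, 62.8% and 58.1% treated. Slc7a8 made up 31.4%, 37.1% and 35.9% untreated and 40.2%, 38.3%, 35.4% and 39.6% treated. Together these genes were nearly all of the sum, with Slc7a6 at 0.976% to 1.80% and Slc7a5 at 0.479% to 1.07%. The mean Slc7a8 share was 34.8% ± 2.98 (SD, n = 3) and 38.4% ± 2.12 (SD, n = 4), with overlapping groups (exact two-sided permutation test, p = 0.171, adjusted p = 0.549 over 8 values). The log2 ratio of Slc7a8 to Slc3a2 TPM was -0.23 ± 0.07 untreated and -0.11 ± 0.14 treated (exact permutation test, n = 3 and 4, p = 0.229, adjusted p = 0.549). Of the 8 shares and ratios none passed, the smallest p was 0.171, and 3 against 4 libraries cannot give less than 0.0571. These tests cannot decide whether Slc7a7 and Slc7a8 differ in rise, and such a difference was not shown, although only Slc7a8 passed the edgeR test on its own. The summed light chain TPM was 2.24 to 2.62 times that of Slc3a2 untreated and 2.27 to 2.51 times treated.

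**Figure D2:**
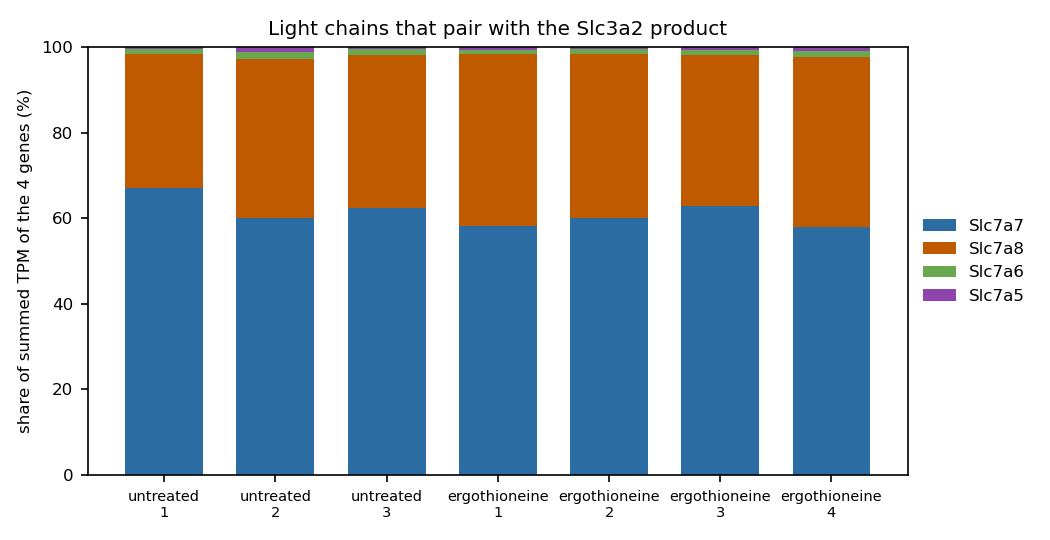
Share (%) of each light chain gene in the summed TPM of Slc7a5, Slc7a6, Slc7a7 and Slc7a8, one bar per kidney. Slc7a7 fills 58.1% to 67.0% of each bar and Slc7a8 31.4% to 40.2%, while Slc7a6 and Slc7a5 are thin slices at the top.

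The 4 calls held in edgeR with each of the 7 libraries left out in turn (adjusted p up to 0.0390 for Slc3a2, 0.0292 for Slc43a2, 0.0246 for Slc16a10 and 0.0101 for Slc7a8), by DESeq2 and by limma-voom. With untreated libraries 1 and 2 both left out, so that library 3 is the only control and is assumed to vary like the treated ones, log2 fold changes were 0.50 for Slc43a2, 0.31 for Slc7a8, 0.26 for Slc3a2 and 0.25 for Slc16a10, and 0 of the 4 passed (edgeR adjusted p = 0.192, 0.0800, 0.0919 and 0.131). On deposited log2(TPM + 1) values the median gene lay at -0.31 and the 4 stood at 0.13, 0.02, -0.10 and -0.03, with 0 called by limma. After TPM were rescaled without short non-coding genes the median gene lay at 0.00 and the 4 at 0.50, 0.39, 0.27 and 0.33, in the direction of the counts but past no threshold (limma adjusted p = 0.0777, 0.10, 0.185 and 0.206).

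**Figure D3:**
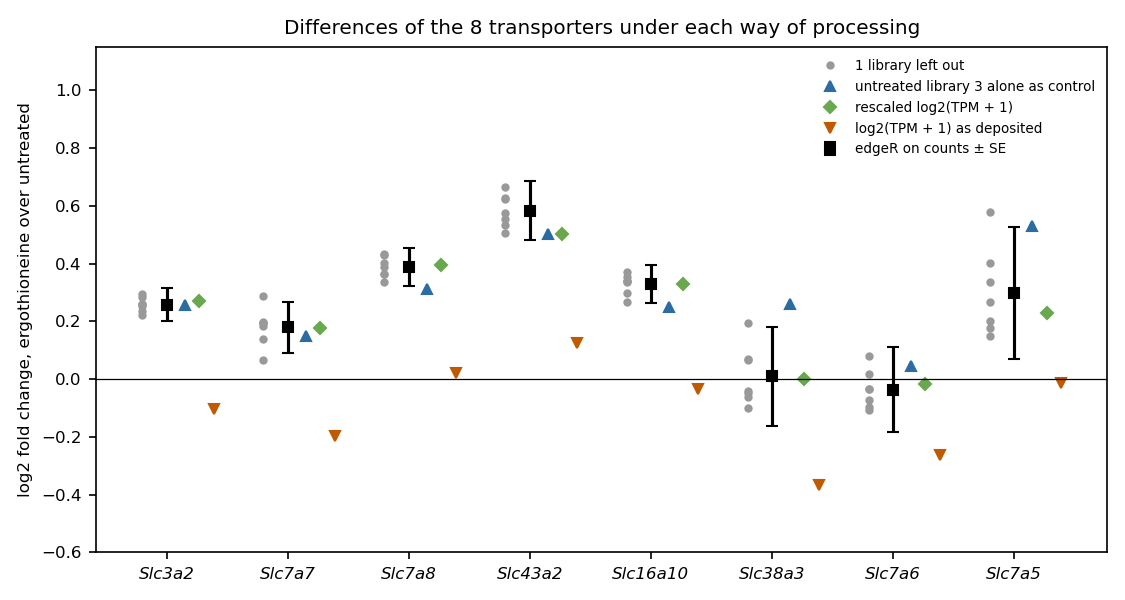
Log2 fold change of ergothioneine over untreated for each gene by edgeR on counts (squares, bars are SE), with 1 library left out (grey), with untreated library 3 alone (triangles), and by log2(TPM + 1) as deposited or rescaled without short non-coding genes. For Slc3a2, Slc7a8, Slc43a2 and Slc16a10 every count-based point and every rescaled point is above 0, while the deposited TPM points are lower for all 8 genes.

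Other genes whose profile over the 7 kidneys lay closest to the 4 risen genes were found by the root mean square difference of centred log2 CPM among 9649 protein-coding genes whose mean log2 CPM reached 3. For Slc7a8 they were Ciapin1 and Tmem51 (0.0292 and 0.0302 log2 units, against a median of 0.231 over all candidates). For Slc43a2 they were Slc44a3 and Adra1a (0.0571 and 0.0786, median 0.335). Slc16a10 lay nearest to Cluh and Abhd8 (0.0337 and 0.0348, median 0.203), and Slc3a2 to Espn and Exosc4 (0.0338 and 0.0357, median 0.169). Abhd8 and Exosc4 did not pass the test between groups (edgeR adjusted p = 0.0976 and 0.118). Among the 8 themselves the closest pair was Slc7a8 and Slc16a10 (0.0642), followed by Slc3a2 and Slc16a10 (0.0755) and Slc3a2 and Slc7a7 (0.0959), while Slc43a2 was nearest to Slc7a8 (0.120).

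Apical carriers, through which amino acids enter the same cells, were called only as lower. Of 13 apical transporters and accessory genes 0 rose and 3 fell, though the median was above 0, at 0.12. Those that fell were Slc36a2 (-2.94 ± 0.40, at most 35 counts in a library), the proline carrier Slc6a20a (-0.55 ± 0.09) and its relative Slc6a20b (-0.36 ± 0.06). Slc36a2 is also expressed in adipocytes, and the fall of the adipocyte markers stands beside it, a part that was not tested. The neutral amino acid carrier Slc6a19 stood at 394 ± 48.1 CPM untreated and 498 ± 59.0 treated and did not pass (SD over 3 and 4 kidneys, with a log2 fold change of 0.34 ± 0.10, edgeR adjusted p = 0.0764). All treated values of Slc6a19 still lay above every untreated value, as did those of Slc1a1 (0.16, edgeR adjusted p = 0.0996). Those of the 3 fallen genes all lay below. Over all tested genes the groups did not overlap in 18.6%, counting either direction. In the whole apical list 1 gene was called higher without untreated library 1, without untreated library 2, and without treated library 3. Of 4 tested genes for other SLC3A subunits 0 rose and 1 fell, the straight tubule carrier Slc7a13 (-0.56 ± 0.09), while Slc3a1 and Slc7a9 did not pass (-0.06 and 0.28, edgeR adjusted p = 0.692 and 0.378). Slc7a13 belongs to the last proximal segment, of whose 6 markers 3 fell in all, with Slc22a30 (-0.61) and Slc5a8 (-0.36). Of 15 further plasma membrane amino acid carriers 1 rose, the basolateral GABA and taurine carrier Slc6a13 (0.32), and 1 fell, the glutamate carrier Slc1a2 (-0.43), with a median of 0.10. Slc1a2 missed the threshold without untreated library 3 (edgeR adjusted p = 0.0538), and 2 carriers fell without untreated library 2.

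Basolateral carriers for other solutes were mixed, with 4 of 18 risen, 1 fallen and a median of 0.05. Those that rose were the monocarboxylate carrier Slc16a1, from 23.7 ± 1.49 to 61.6 ± 7.19 CPM (SD over 3 and 4 kidneys, with a log2 fold change of 1.38 ± 0.09), its relative Slc16a7 (0.75 ± 0.10), the glucose carrier Slc2a1 (0.40) and the sulfate carrier Slc26a1 (0.31). The dicarboxylate carrier Slc13a3 fell (-0.31) and lost its call when untreated 1, untreated 3 or treated 1 was left out (edgeR adjusted p up to 0.0835), while 2 carriers fell when untreated 2, treated 3 or treated 4 was. TAT1 belongs to the same SLC16 family as the carriers encoded by Slc16a1 and Slc16a7.

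**Figure D4:**
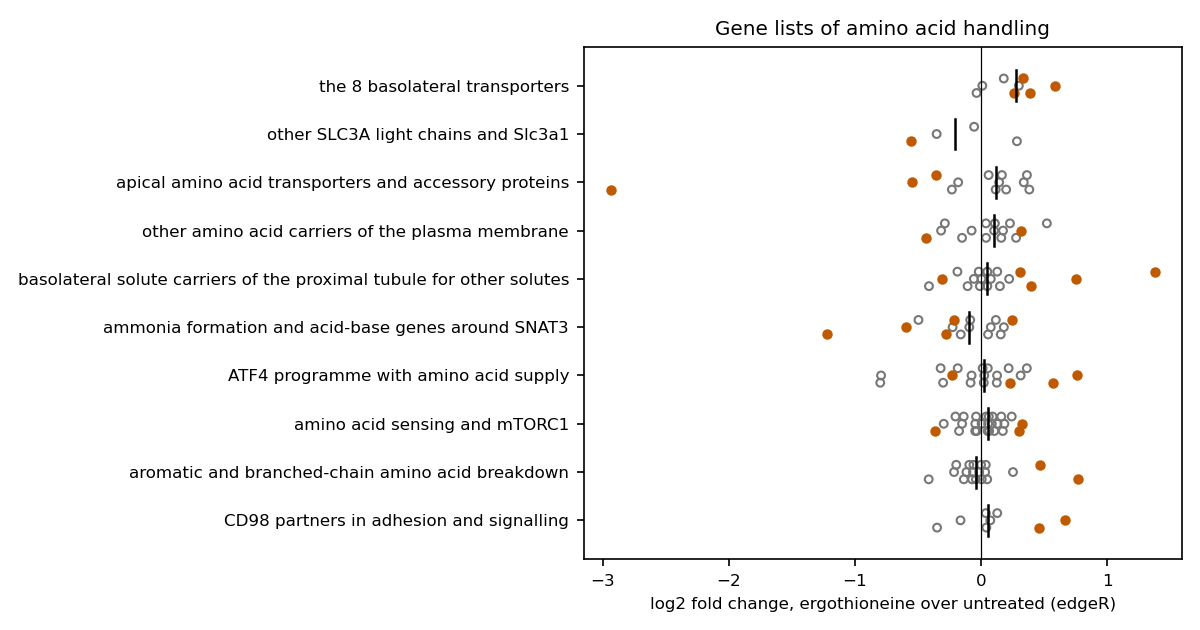
Log2 fold change by edgeR of each tested gene in the 8 basolateral transporters and in 9 other lists, 1 circle per gene, with filled circles past the adjusted threshold and black lines at list medians. The 8 transporters have a median of 0.28, and the other 9 lists have medians between -0.20 and 0.12.

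Among genes of ammonia formation, acid-base handling and related transport around SNAT3, of 15 tested 1 rose and 4 fell, with a median of -0.09. Pck1, which turns glutamine-derived carbon toward glucose, fell from 1889 ± 370 to 809 ± 42.9 CPM (SD over 3 and 4 kidneys, with a log2 fold change of -1.22 ± 0.11), and the alanine aminotransferase Gpt2 from 77.1 ± 6.00 to 51.1 ± 5.94 CPM (-0.59 ± 0.08). Glul (-0.28), Slc25a13 (-0.21) and the risen Got1 (0.24) each missed the threshold in 2, 5 and 5 of the 7 fits with 1 library left out (edgeR adjusted p up to 0.0877, 0.146 and 0.1003). For Glul the kidneys were untreated 1 and treated 1. Slc25a13 kept its call only without untreated 2 or treated 3, and Got1 only without untreated 3 or treated 3.

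Slc3a2 and Slc7a5 are known targets of the amino acid starvation factor ATF4. Of 20 other tested genes of that programme 3 rose and 1 fell, with a median of 0.02. Atf4 itself was at 52.6 ± 3.49 and 49.6 ± 6.25 CPM (SD over 3 and 4 kidneys, edgeR adjusted p = 0.669), and Psat1, a serine synthesis enzyme, rose by 0.76 ± 0.09. Ddit4 (0.57), Aars (0.23) and Cebpg (-0.23) each missed the threshold in 4, 6 and 6 of the 7 fits with 1 library left out (edgeR adjusted p up to 0.0990, 0.0941 and 0.102). Ddit4 was kept only when untreated 1, treated 2 or treated 3 was left out, Aars only when treated 2 was, and Cebpg only when treated 3 was. Without treated 3 the number of genes that fell was 2. Of 26 genes of amino acid sensing and mTORC1, the kinase complex that reads amino acids, 2 rose, the GTPase gene Rragd (0.32 ± 0.06) and Castor2 (0.30), and 1 fell, the kinase gene Mtor (-0.37 ± 0.06), with a median of 0.05. Castor2 kept its call only without untreated library 3 or treated library 3 (edgeR adjusted p up to 0.0970 in the others).

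In the breakdown of the amino acids that LAT4 and TAT1 carry, 2 of 19 tested genes rose and 0 fell (1 without untreated library 3), with a median of -0.04. They were Ddc, the decarboxylase of aromatic amino acids, from 51.4 ± 3.44 to 87.7 ± 8.06 CPM, and the branched-chain aminotransferase Bcat2, from 35.4 ± 4.74 to 48.9 ± 4.96 CPM (SD over 3 and 4 kidneys, with log2 fold changes of 0.77 ± 0.08 and 0.47 ± 0.10). CD98hc also binds integrins. Of 8 genes for its partners in adhesion and signalling 2 rose, with a median of 0.06. These 8 were integrin chains together with Lgals3, Bsg, Cd44 and Egfr. Itga6, an integrin chain of epithelia, rose from 92.7 ± 8.58 to 147 ± 2.91 CPM (0.66 ± 0.06), while Itgb1 was at 265 ± 28.6 and 272 ± 3.46 CPM and did not pass (SD over 3 and 4 kidneys, edgeR adjusted p = 0.822). Lgals3 (0.46), whose product galectin-3 binds CD98hc, missed the threshold without untreated library 1 (edgeR adjusted p = 0.0684).

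Of the other cell type lists, 2 of 5 intercalated cell markers and 1 of 6 fibroblast and mural markers rose, and 1 of 4 tested lymphocyte markers fell. The mural call (Acta2) was lost without untreated 1 or treated 2. None of 5 principal cell, 6 endothelial or 2 tested erythroid markers passed by edgeR.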

How the data were processed

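RNA-seq was measured in whole kidney of 7 Slc7a9-/- mice. Per the labels' protocols, libraries were stranded, followed depletion of ribosomal RNA and took 10 amplification cycles. The tools named in the submitters' processing notes include STAR 2.7.10a, RSEM 1.3.1 and Salmon 1.10.1 and the build was GRCm38, with no roles given. The authors deposited expected counts, of which 3.61% of values were not whole, and TPM, in which a level per transcript length is given as part of a constant library sum. The annotation release is not given in the sources used here, and GENCODE M21 symbols matched 45143 of 45706 identifiers.

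Rounded expected counts entered edgeR 4.0.16 (R 4.3.3): TMM scaling, low genes removed by filterByExpr with the groups given, a robust quasi-likelihood F test, and Benjamini-Hochberg adjustment at 0.05. Each standard error is the size of the log2 change over the root of its F. CPM use TMM library sizes. The median standard error was 0.11 log2 units over all genes and 0.10 over the 8 genes, at 14843899 to 19791575 counts per library. Shares and ratios of TPM were tested by exact permutation over libraries. The edgeR fit was also run on simulated counts drawn with the spread of the main fit. These counts held no split among the untreated libraries, so they cannot show how the fit behaves under that split. Libraries of a group differed by 7.48 to 25.4 times sampling noise (chi-square per degree of freedom), so none was a copy. The labels number the mice but give no litter, cage or collection time, so p-values reflect the spread between these mice. Library index numbers were under 40 for 4 libraries and over 40 for untreated 1 and 2 and treated 1.

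The alternatives were DESeq2 1.42.0, limma-voom and limma-trend (limma 3.58.1) on log2(TPM + 1) and log2(TPM + 0.1), other scalings and filters, blocks and left-out libraries. The 8 genes and the lists (9 of amino acid handling, 14 of cell types) were chosen with earlier results of these data known. Text names all 8 genes and up to 4 called members per list by size of change, for called members the 2 nearest profiles, and Slc7a9 and Slc3a1. Slc26a1, Slc25a13, Slc6a19, Slc1a1, Atf4 and Itgb1 were named after their values were seen. Protein sequences were not used here, and 1 cell type list is not reported here.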

Additional observations from a re-analysis of the deposited data

Results flagged for a closer look

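In the treated group of 4, single kidneys lay far from the others for 2 of the 24 values examined by the gap to the nearest kidney over the range, and chance gives about 1 in 20. Treated kidney 4 had 73.84 TPM of Slc7a7, against 85.28 to 86.32 TPM in the other 3 treated kidneys. Its CPM of Slc7a7 was 147.0, against 149.0 to 165.7 in those 3. Treated kidney 3 had a log2 ratio of Slc7a8 to Slc3a2 TPM of -0.3159, against -0.06 to -0.03 in the other 3, with Slc7a8 at the lowest and Slc3a2 at the highest CPM of the group.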

How the results depend on the processing

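Among the 8 genes the count of 4 higher and 0 lower was the same by DESeq2, limma-voom, RLE and upper quartile scaling, both other filters, without mitochondrial and haemoglobin genes, with the range of library index numbers as a block, and with each library left out (4 to 4 higher, 0 to 0 lower). It became 0 higher on log2(TPM + 1), on log2(TPM + 0.1), on rescaled TPM and without both untreated libraries 1 and 2. The labels do not say whether replicate numbers pair the mice. Deviations of same-numbered kidneys correlated at 0.0272, -0.0679 and 0.00274, which shows no sign of pairing but cannot exclude a shared litter, cage or collection time. With the replicate block 3 were higher, as Slc43a2 moved to adjusted p = 0.0565 (edgeR, log2 fold change 0.55), and 809 genes were called. All genes called were 1102 in the main analysis, 276 on rescaled TPM, 556 without both untreated libraries 1 and 2, and 692 to 1103 with 1 library left out (692 and 710 when treated 1 or treated 2 was the one). On log2(TPM + 1) 54 were higher and 1484 lower. Directions reversed on log2(TPM + 1) and log2(TPM + 0.1) for Slc7a7 (-0.20 and -0.20), Slc3a2 (-0.10 and -0.10), Slc16a10 (-0.0330 and -0.0341), Slc7a5 (-0.0141 and -0.0082) and Slc38a3 (-0.37 and -0.38), where the median gene lay at -0.31 and -0.37. Slc7a6 was 0.0452 without both untreated libraries 1 and 2. With 1 library left out Slc7a6 ranged from -0.108 to 0.0790 and Slc38a3 from -0.10 to 0.20. The Slc7a5 share difference was 0.0357 percentage points, -0.0249 on CPM and -0.0760 to 0.218 with 1 library left out, and its log2 ratio difference to Slc3a2 ranged from -0.0858 to 0.380. Slc7a5 and Slc7a6 rest on 39 to 125 counts per library, and the part of depth in their standard errors was not tested. For TPM of Slc7a7, Slc43a2 and Slc38a3 the cause was not tested beyond the rescaling.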

Other observations

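Counts divided by TPM give the mean transcript length that the deposited quantification assigned to a gene in each kidney, scaled here on 721 genes that have 1 listed transcript. This measure was added after the data were seen. Slc43a2, with 11 listed transcripts, had 4391, 4315 and 4061 nt untreated and 4596, 4766, 4112 and 4581 nt treated, and the groups overlapped (exact two-sided permutation test, n = 3 and 4, p = 0.229). Treated kidney 3, with the lowest Slc43a2 count of its group, also had the shortest assigned length in it. Slc7a7, with 8 listed transcripts, ranged from 1487 to 1705 nt and Slc38a3, with 14, from 2059 to 2190 nt, without separation of the groups. Slc3a2, with 2 listed transcripts, stayed between 2300 and 2314 nt in all 7 kidneys. For Slc7a5, treated kidney 4 had 2809 nt against 3220 to 3261 nt in the other 6 kidneys, from 82 counts.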
